A study of Mus musculus with 24 samples.

Results

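The interaction between hepatocyte coculture and the withdrawal of serine and glycine was examined in Phgdh knockout (KO) cells of the HY19636 line, which derives from mouse pancreatic ductal adenocarcinoma (PDAC). The 12 KO libraries, of 24 in the series, entered it as 4 groups of 3. They came from KO cells cultured with hepatocytes in medium free of serine and glycine (deprived coculture), with hepatocytes in medium that held both (supplied coculture), alone in the free medium (deprived monoculture) and alone in the medium that held both (supplied monoculture). For each gene the withdrawal change in coculture (deprived minus supplied) was set against the withdrawal change in monoculture, on the log2(FPKM + 1) scale, where FPKM is fragments per kilobase of gene, scaled to depth. A negative interaction means that withdrawal moved the gene less upward, or more downward, with hepatocytes than without them. Of 54532 genes in the deposited table, 12061 reached an FPKM of 1 in 3 or more of the 24 libraries and were tested. Of these, 2256 changed at least 2-fold on withdrawal in monoculture (adjusted p under 0.05) and were sorted by how much of that change was left in coculture. The 12 wild type (WT) libraries of the same line, in the same 4 conditions, served for comparison. The sources used here do not give how many KO clones were used, which part of Phgdh was edited or how the cancer cells were parted from the hepatocytes.

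Serine is made from glucose by 3 enzymes, Phgdh, Psat1 and Psph, and a cell without working Phgdh depends on serine from outside. Serine feeds glycine, the folate one-carbon pool that nucleotide synthesis draws on, cysteine and glutathione, and sphingolipids and phosphatidylserine. Hepatocytes make and release serine, and the title of the series names them as a source of it for pancreatic cancer cells in liver metastasis.

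The libraries held 15740081 to 23479425 reads recovered from the FPKM, and replicates correlated at 0.967 to 0.993 across genes. Replicate 1 stood apart in supplied KO monoculture, and replicates 1 and 2 lay at opposite ends in deprived KO coculture, so the counts of coculture and WT calls and the classes below are also given without them. Phgdh had an FPKM of 817, 606 and 726 in deprived KO coculture, 885, 869 and 868 in supplied coculture, 616, 732 and 737 in deprived monoculture and 372, 548 and 529 in supplied monoculture, against 789 to 1405 over the 12 WT libraries. The transcript was therefore still present in KO cells, and the gene total does not show whether enzyme was made. Hepatocyte transcripts were nearly absent from KO libraries. Of 25 hepatocyte markers only Hnf4a passed the filter on low values, and albumin (Alb) stood at 0 to 0.131 FPKM in deprived and 0 to 0.024 FPKM in supplied coculture.

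Withdrawal moved KO cells far less when hepatocytes were present. The interaction was called for 6962 of 12061 genes (57.7%), of which 3365 (27.9% of those tested) were positive and 3597 (29.8%) negative, and 1949 were at least 2-fold. In monoculture 8534 of the 12061 genes were called on withdrawal. Of these, 2256 (18.7% of those tested) also changed at least 2-fold, 1099 upward and 1157 downward. In coculture 3607 genes (29.9%) were called, 1865 (15.5%) upward, but only 123 of them changed at least 2-fold. The coculture count was 2152 without replicate 2 of deprived coculture and 1774 in a fit of the KO libraries alone, and the count at 2-fold was 71 without replicate 2, 278 without replicate 1, 352 with a pseudocount of 0.1 and 388 with limma voom. Over the 2256 sorted genes the median share of the monoculture change kept in coculture was 13.6%, with quartiles of -2.20% and 28.5%. The coculture libraries taken singly gave medians of 11.6%, 15.5% and 13.5% for replicates 1, 2 and 3, with no library in common with the monoculture change. The libraries differed more than these medians show. Quartiles were -0.26% and 24.2% in replicate 1, -7.89% and 37.2% in replicate 2, and -2.87% and 29.4% in replicate 3.

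Sorted by that share, 1394 genes (61.8%) were fully rescued, meaning that the interaction was called against the monoculture change and the kept share lay within 25% of 0. The term does not mean that no response was left. Of these genes 290 were still called on withdrawal in coculture with the monoculture sign and 52 with the other sign. Another 568 (25.2%) were partly rescued, with more than 25% of the change kept. A further 164 (7.27%) overshot, turning by more than 25% in the other direction. In 129 (5.72%) the interaction was not called, and these are termed not rescued. Without replicate 1 of supplied monoculture there were 1431 fully rescued genes, 690 partly rescued genes, 117 overshooting genes and 141 not rescued genes. Without replicates 1 and 2 of deprived coculture these were 1358, 519, 191 and 189. A single sorted gene, Il1rn, had a called interaction in the direction of its monoculture change. Over all tested genes 38 had both called with the same sign. Genes that rose and genes that fell were rescued in similar numbers, 700 and 694 fully, with median kept shares of 13.4% and 13.8% over all sorted genes. The limits between the classes cut through a continuum. Btg3 kept 24.95% and counts as fully rescued, and Rnf20, a hair over 25%, counts as partly rescued. Rab4a entered at -1.0002 in monoculture and Sorbs2, at -0.9994, did not.

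**Figure D1:**
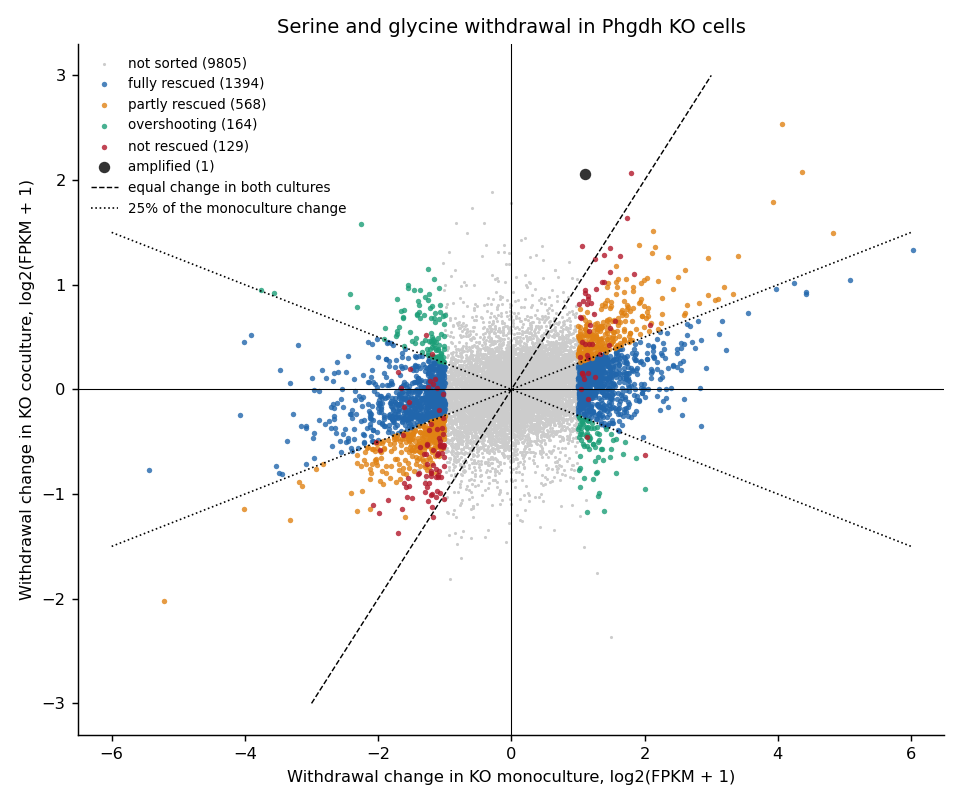
Withdrawal change of each of 12061 genes in KO coculture (vertical axis) against KO monoculture (horizontal axis), both as log2(FPKM + 1), with the sorted genes coloured by class. Most of the 2256 sorted genes lie near the horizontal line at 0 and far from the dashed line of equal change, at a median kept share of 13.6%.

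The fully rescued genes that rose most in deprived monoculture were Sprr1a, a cornified envelope protein, Nr1d1, the heme-binding clock repressor REV-ERB alpha, and Ereg, the EGF receptor ligand epiregulin. Sprr1a had an FPKM of 221, 220 and 215 in deprived and 89.6, 85.0 and 84.0 in supplied coculture, against 834, 906 and 906 in deprived and 13.45, 12.25 and 11.9 in supplied monoculture. The 4 groups did not overlap, and deprived coculture lay between the supplied and the deprived monocultures. The interaction was -4.69 ± 0.08 (SE, adjusted p = 1.57e-18), with 22.1% of the monoculture change kept. Nr1d1 had an FPKM of 13.7, 13.9 and 13.0 in deprived and 6.36, 5.64 and 6.19 in supplied coculture, against 123, 152 and 144 in deprived and 3.09, 3.38 and 3.003 in supplied monoculture. Its interaction was -4.03 ± 0.15 (adjusted p = 4.48e-14). Ereg, at 144 to 172 FPKM in deprived monoculture, stood at 13.4 to 16.6 in deprived coculture, with an interaction of -3.52 ± 0.18 (adjusted p = 6.13e-12). Sprr1a, Nr1d1 and Ereg were still called upward on withdrawal in coculture, by 1.33, 1.04 and 0.91.

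Among the fully rescued genes that fell, the lipid desaturase Scd2 had the largest monoculture change (-5.44 ± 0.07), and it was still called downward in coculture (-0.77 ± 0.07). Its FPKM was 428, 365 and 410 in deprived and 678, 672 and 695 in supplied coculture, against 12.9, 13.7 and 13.8 in deprived and 549, 674 and 669 in supplied monoculture. Only the deprived monocultures were low, and the interaction of 4.68 ± 0.09 (adjusted p = 1.2e-17) was exceeded among positive ones of the named genes only by that of Gapdh, described below as uncertain. Igfbp7, a secreted IGF-binding protein, stood at 20.4 to 24.5 FPKM in deprived coculture and at 0.78 to 1.38 in deprived monoculture, with 5.92% of the change kept. Gstm1, a glutathione transferase, had 15.98 to 19.45 FPKM in deprived coculture against 0.31 to 0.81 in deprived monoculture, with an interaction of 4.46 ± 0.15 (adjusted p = 2.24e-14).

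**Figure D2:**
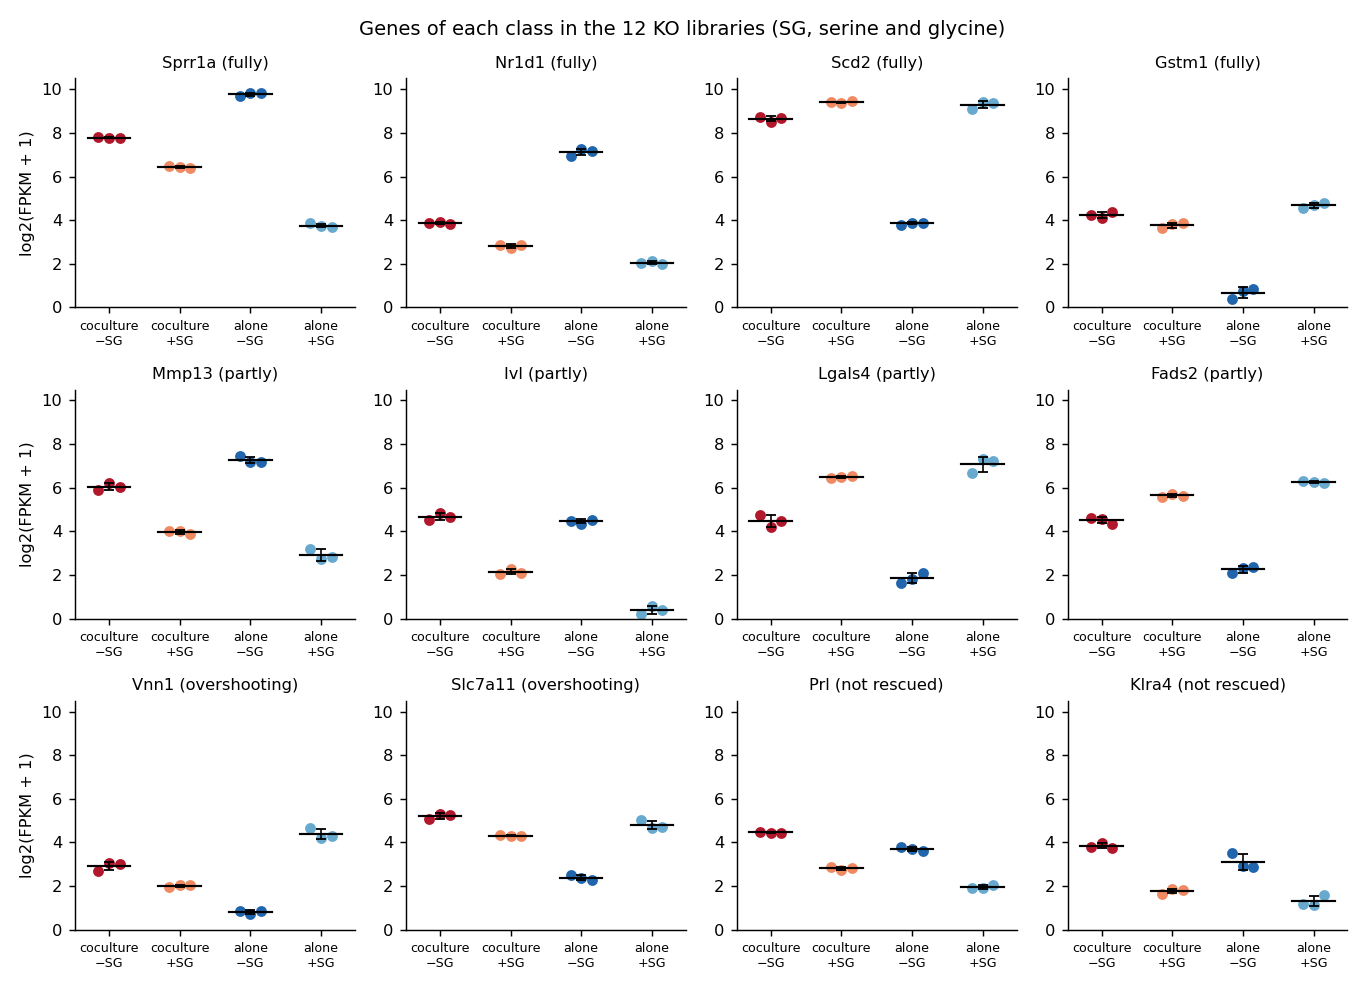
log2(FPKM + 1) of 12 genes in the 12 KO libraries, in the order deprived coculture, supplied coculture, deprived monoculture and supplied monoculture. Points are libraries, bars are the mean and SD of 3, and SG stands for serine and glycine. Fully rescued Scd2 is low in deprived monoculture only (12.9 to 13.8 FPKM), whereas Prl rose with withdrawal in both cultures, by 1.64 in coculture and 1.74 in monoculture.

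Partly rescued genes kept a median of 36.0% of their change, and 511 of the 568 were also called on withdrawal in coculture with the monoculture sign. Mmp13, a collagenase, had an FPKM of 57.9, 72.7 and 65.4 in deprived and 15.02, 15.2 and 13.6 in supplied coculture, against 173, 146 and 146 in deprived and 8.23, 5.602 and 6.05 in supplied monoculture. The interaction was -2.28 ± 0.17 (adjusted p = 1.29e-09), with 47.7% kept. Ivl, the cornified envelope protein involucrin, reached 21.8 to 27.8 FPKM in deprived coculture and 19.5 to 22.2 in deprived monoculture, although the supplied groups stood at 3.18 to 3.83 and 0.16 to 0.51. Its level under deprivation was thus no lower with hepatocytes, and 62.6% of its change on the log2(FPKM + 1) scale was kept. This share depends on the pseudocount, which counts at the levels of Ivl in supplied monoculture. The Ivl interaction in KO was -1.52, and -3.11 to -1.39 over the alternatives. Dynap rose by 4.83 in monoculture, more than Mmp13 (4.36) and Ivl (4.06), and kept 31.0% (interaction -3.33 ± 0.14). Among genes that fell, Lgals4, the intestinal lectin galectin-4, had an FPKM of 25.7, 17.4 and 21.3 in deprived and 87.2, 90.0 and 90.5 in supplied coculture, against 2.14, 2.49 and 3.25 in deprived and 99.8, 158 and 150 in supplied monoculture. All 3 deprived cocultures lay above the deprived monocultures and below both supplied groups, with 38.7% kept (interaction 3.20 ± 0.20, adjusted p = 1.29e-10). The fatty acid desaturase Fads2 kept 28.5% and Fam189b 27.8%.

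Overshooting genes changed in the other direction on withdrawal in coculture, and 96 of the 164 were called there. The clearest was Slc7a11, the cystine importer of system xc-. Its FPKM was 32.6, 39.0 and 37.8 in deprived and 19.3, 18.8 and 18.5 in supplied coculture, against 4.66, 4.12 and 3.85 in deprived and 31.8, 24.5 and 25.3 in supplied monoculture. It fell by 2.43 on the log2 scale on withdrawal in monoculture and rose by 0.91 in coculture (adjusted p = 1.01e-14 and 5.43e-07), an interaction of 3.34 ± 0.13 (adjusted p = 7.03e-14). Vnn1, the pantetheinase vanin-1, fell by 3.57 in monoculture and rose by 0.92 in coculture. Its FPKM was nonetheless 2.86 to 3.16 in supplied coculture against 17.4 to 23.99 in supplied monoculture, so the rise started from a lower level. Tmem238, Ndufb6 and Nop10 rose in monoculture and had coculture changes of -0.95, -0.50 and -0.65, of which that of Ndufb6 did not pass the test (adjusted p = 0.19). Gapdh was counted here with 0.63, 14.97 and 1.02 FPKM in deprived monoculture, but it spread widely within every group and shares reads with near-identical processed copies. Its call was lost under 9 of the alternatives, and it is treated as uncertain.

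The 129 not rescued genes were short and variable, with a median gene length of 489 bases and a median SE of the interaction of 0.405, against 3490 bases and 0.136 in the fully rescued class, and 59 of the 129 were protein coding. Only 29 kept more than 75% of their change, and 25 kept less than 25%, so for many the test could not tell rescue from none. A protein-coding case with a small error was Prl, the hormone prolactin, with 21.6, 20.7 and 20.7 FPKM in deprived and 6.42, 5.68 and 6.13 in supplied coculture, against 12.97, 11.99 and 11.1 in deprived and 2.78, 2.75 and 3.17 in supplied monoculture. Withdrawal raised it in both cultures, by 1.64 in coculture and 1.74 in monoculture, and the interaction was -0.10 ± 0.09 (adjusted p = 0.342). With a pseudocount of 0.1 the Prl interaction in KO was -0.24 and was called (adjusted p = 0.0441). Klra4, a lectin-like receptor known from natural killer cells, had 12.6 to 14.8 FPKM in deprived coculture and 2.16 to 2.605 in supplied coculture, and kept 115% of its change (interaction 0.27 ± 0.24, adjusted p = 0.349). Ect2, which is needed for cytokinesis, kept 78.5% (interaction -0.35, adjusted p = 0.0949). Its interaction was called without replicate 1 of supplied monoculture (-0.51). In WT cells Ect2 changed on withdrawal by 0.79 in coculture and by -0.03 in monoculture.

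The not rescued genes that fell most were Mvd, an enzyme of the mevalonate pathway, Hcfc1r1 and Jund, an AP-1 subunit. Their replicates lay far apart. Jund had an FPKM of 56.1, 14.0 and 29.1 in deprived coculture and 60.4, 55.8 and 61.2 in supplied coculture, against 8.12, 18.0 and 18.4 in deprived and 19.1, 69.5 and 59.6 in supplied monoculture. Replicate 1 of supplied monoculture and replicate 2 of deprived coculture were the low ones, and the same held for Mvd (21.5 and 7.11 FPKM) and Hcfc1r1 (22.4 and 25.8 FPKM). Without replicate 1 of supplied monoculture the Mvd interaction in KO was 0.82 and the Hcfc1r1 interaction in KO was 1.10, and without replicate 2 of deprived coculture they were 0.74 and 0.94. Both were called in each case. Il1rn, the interleukin-1 receptor antagonist and the amplified gene, averaged 27.2 FPKM in deprived and 5.735 in supplied coculture, against 14.4 in deprived and 6.15 in supplied monoculture. Its withdrawal change was 2.06 in coculture and 1.11 in monoculture.

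Rescue of the response did not always mean the same level. In the fully rescued class the deprived coculture lay a median of 0.29 log2 units from the supplied monoculture, and 109 of 1394 genes were still at least 2-fold away. Coculture itself changed 4824 genes (40% of those tested) in the presence of serine and glycine, 2429 (20.1%) upward, and 675 of the 1394 fully rescued genes were among them, 90 at least 2-fold. These counts share the supplied groups with the sorting and are given as a description. Sprr1a is an example, since it stood at 84.0 to 89.6 FPKM in supplied coculture against 11.9 to 13.45 in supplied monoculture (2.69 on the log2 scale). Krt8, a keratin of simple epithelia, had 786 to 803 FPKM in supplied coculture against 281 to 344 in supplied monoculture and kept 14.6% of its withdrawal change. Cdkn1a, the cell cycle inhibitor p21, rose on withdrawal in monoculture (1.12) and fell in coculture (-0.44), yet had 56.8 to 71.4 FPKM in deprived and 86.2 to 89.6 in supplied coculture, against 38.4 to 49.0 in deprived and 15.6 to 23.4 in supplied monoculture.

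None of the 3 serine synthesis enzymes changed 2-fold on withdrawal in monoculture. The interaction was called for Phgdh (-0.84 ± 0.16, adjusted p = 0.000233) and Psat1, the transaminase (-0.34 ± 0.08, adjusted p = 0.00086; under quantile normalization -0.16, adjusted p = 0.187), and not for Psph, the phosphatase (-0.08 ± 0.09, adjusted p = 0.427). Among 14 tested folate one-carbon enzymes 8 interactions were negative and 6 positive, and the 4 sorted members were all fully rescued, against 29.8% negative and 27.9% positive over all genes and 61.8% fully rescued among sorted genes. Tyms, which makes thymidylate, rose in monoculture by 1.13 with an interaction of -0.92. Of the serine hydroxymethyltransferases, cytosolic Shmt1 rose (1.28, interaction -0.97) whereas mitochondrial Shmt2 fell (-1.62, interaction 1.34). Of 13 genes of pyrimidine and deoxynucleotide supply 10 had a negative interaction, led by the ribonucleotide reductase subunit Rrm2. It had 5.32, 6.01 and 6.35 FPKM in deprived and 2.65, 2.79 and 2.41 in supplied coculture, against 56.9, 50.4 and 48.3 in deprived and 1.99, 1.28 and 1.19 in supplied monoculture. Its interaction was -3.49 ± 0.17 (adjusted p = 3.46e-12).

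DNA replication genes and mitosis genes, most of which rose in deprived monoculture (38 of 44 and 27 of 28), differed in how far coculture took the rise back. Over all tested genes 8534 of 12061 were called on withdrawal in monoculture, in either direction. Of 44 tested replication and S phase genes 38 had a negative interaction and 0 a positive one, against 29.8% negative over all genes. Their median withdrawal change was 0.12 in coculture and 0.98 in monoculture, against -0.0007 and 0.0042 over all tested genes. Of the 21 sorted members 18 were fully and 3 partly rescued, against 61.8% and 25.2% of all sorted genes. Of 28 tested mitosis and cytokinesis genes 20 had a negative interaction, but the median change was 0.82 in coculture and 1.61 in monoculture. All 28 were called upward in coculture, against 15.5% of all genes. Of the 24 sorted members 2 were fully rescued, 18 partly and 4 not, against 61.8%, 25.2% and 5.72% of all sorted genes. The median kept share was 52.2% for the sorted mitosis genes and 13.4% for the sorted replication genes. In WT cells the median withdrawal change of the mitosis genes was 0.43 in coculture and -0.03 in monoculture. For the replication genes the WT medians were 0.18 and -0.08. How much of the change kept in KO coculture is shared with WT coculture was not tested. Over the alternatives run on filtered genes, 0 to 2 mitosis genes were fully rescued, and without replicates 1 and 2 of deprived coculture the mitosis genes were 2 fully, 17 partly and 5 not rescued. The difference between the lists was not tested, and in bulk RNA more cells in a phase and more transcript per cell cannot be told apart.

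Mcm5, a subunit of the replicative helicase, had 3.69, 3.34 and 3.27 FPKM in deprived and 1.67, 1.94 and 1.42 in supplied coculture, against 20.1, 21.4 and 20.9 in deprived and 0.89, 0.90 and 0.77 in supplied monoculture. The interaction was -2.83 ± 0.12 (adjusted p = 5.14e-13) and 20.6% was kept. Top2a, the topoisomerase that untangles chromosomes, had 3.26, 3.77 and 3.25 FPKM in deprived and 0.79, 0.89 and 0.82 in supplied coculture, against 18.3, 14.7 and 15.3 in deprived and 0.73, 0.60 and 0.52 in supplied monoculture, with 37.4% kept (-2.13 ± 0.11, adjusted p = 4.92e-12). Cyclin B1 (Ccnb1) kept more still, 71.1%, at 3.18 to 3.54 FPKM in deprived and 0.31 to 0.69 in supplied coculture, against 5.07 to 5.49 in deprived and 0.40 to 0.49 in supplied monoculture. The mitotic kinase Plk1, with Ect2, Ccnb2 and Cenpe, made up the 4 not rescued mitosis genes. Bub1b, Cdc20, Kif20a and Ube2c, which changed less than 2-fold in monoculture, also had no called interaction.

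The promoters of replication genes often carry a site for E2F, the factor that turns on S phase transcription, so the windows of 3 helicase subunits of the MCM complex are shown. Each runs from 250 bases before to 50 bases after the RefSeq start, 5′ to 3′ on the gene's strand (GRCm38.p6), with matches to TTTGGCGC or TTTCGCGC on either strand in capitals; the forms can overlap. The windows are chr8:75109259-75109558 (plus strand), chr1:20820263-20820562 (minus strand) and chr1:128359656-128359955 (minus strand).
Mcm5: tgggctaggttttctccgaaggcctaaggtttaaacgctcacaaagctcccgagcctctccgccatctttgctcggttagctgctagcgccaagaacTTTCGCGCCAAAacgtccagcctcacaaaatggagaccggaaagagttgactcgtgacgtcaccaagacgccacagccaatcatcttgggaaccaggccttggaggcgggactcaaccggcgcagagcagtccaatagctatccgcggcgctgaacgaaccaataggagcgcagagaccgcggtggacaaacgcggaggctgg
Mcm3: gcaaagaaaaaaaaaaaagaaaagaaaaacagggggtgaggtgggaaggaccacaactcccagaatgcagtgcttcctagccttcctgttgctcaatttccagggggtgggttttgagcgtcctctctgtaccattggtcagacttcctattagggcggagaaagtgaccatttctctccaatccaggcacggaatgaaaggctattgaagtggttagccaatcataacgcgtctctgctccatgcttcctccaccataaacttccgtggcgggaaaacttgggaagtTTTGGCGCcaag
Mcm6: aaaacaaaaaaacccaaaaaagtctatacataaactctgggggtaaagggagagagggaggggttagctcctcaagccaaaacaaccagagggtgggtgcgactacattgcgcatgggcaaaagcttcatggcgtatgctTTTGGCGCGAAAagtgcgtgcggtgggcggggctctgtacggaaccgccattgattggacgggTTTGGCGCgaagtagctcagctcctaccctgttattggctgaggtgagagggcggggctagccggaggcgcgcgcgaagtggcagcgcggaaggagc
Such a match was present in 11 of 35 replication genes with a RefSeq window (31.4%) and in 1 of 23 mitosis genes (4.35%). It was present in 22 of 509 fully rescued genes that rose (4.32%), in 162 of 8179 tested protein-coding genes with a window (1.98%) and in 0.81% of all 32851 windows. A match is a description of the letters and not of binding.

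The same interaction was seldom called in WT cells, and there it had the opposite sign for some cell cycle genes. In WT it was called for 201 genes (1.67%), 51 of them positive (0.423%). The test used a spread estimated over all 24 libraries, so the KO libraries also enter it. No fit of the WT libraries alone was run. Of the WT calls 75.1% (151 genes) were also called in KO, where 57.7% of all tested genes were called. The 151 genes are 2.17% of the KO calls. Of them 55 had the same sign in both and 96 opposite signs. In 36 of the 96 the WT interaction was positive and the KO interaction negative, and in the others the reverse held. The difference between the interactions, KO minus WT, was called for 5605 genes (46.5%), 2841 negative (23.6%). Among replication genes the WT interaction was positive in 9 of 44 and the difference negative in 38, and among mitosis genes these numbers were 4 and 21 of 28. Rrm2 is the plainest case. In WT it had 9.82, 10.1 and 10.49 FPKM in deprived and 5.71, 7.02 and 5.22 in supplied coculture, against 2.59, 1.81 and 1.72 in deprived and 3.16, 2.81 and 2.47 in supplied monoculture. The WT interaction was 1.02 ± 0.17 (adjusted p = 0.0038), and the difference from KO was -4.51. Top2a likewise had a WT interaction of 0.59 (adjusted p = 0.0069). The count of calls for the WT coculture-by-withdrawal interaction was 362 without replicate 1 of supplied KO monoculture and 100 without replicate 1 of WT deprived coculture. It was 107 to 131 without replicate 1 of WT supplied coculture, replicate 3 of WT deprived monoculture, or replicates 1 or 3 of WT supplied monoculture.

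**Figure D3:**
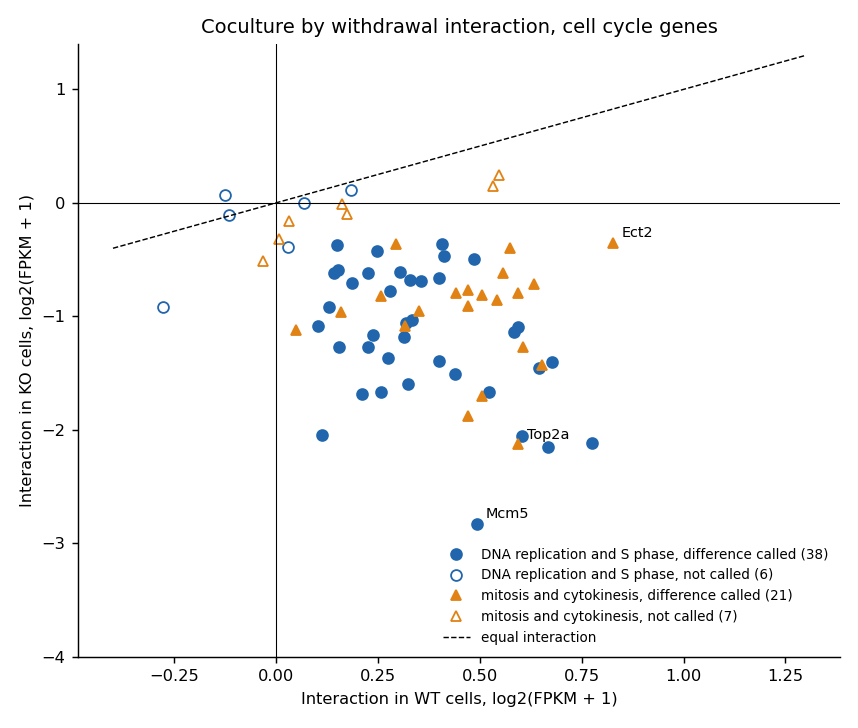
Coculture by withdrawal interaction of 44 replication and 28 mitosis genes in KO cells (vertical axis) against WT cells (horizontal axis), as log2(FPKM + 1), with filled symbols where the KO minus WT difference was called. Most genes lie below 0 in KO cells and above 0 in WT cells, and the difference was called for 38 replication and 21 mitosis genes.

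Sterol and lipid genes moved opposite to the cell cycle genes. All 25 tested genes of cholesterol synthesis and uptake were called downward in deprived monoculture (median -1.64), where 8534 of 12061 genes were called in either direction. Of the 25, 24 had a positive interaction, against 27.9% over all genes. Of the 22 sorted 11 were fully rescued, 10 partly and 1, Mvd, not, against 61.8%, 25.2% and 5.72% of all sorted genes. The response was not wholly lost, since 18 of the 25 were still called downward in coculture (median -0.50). Over all genes 29.9% were called there in either direction, 15.5% upward. Idi1, the isomerase of isopentenyl diphosphate, had 8.245, 13.8 and 10.01 FPKM in deprived and 14.7, 12.7 and 14.1 in supplied coculture, against 2.695, 1.51 and 2.31 in deprived and 26.5, 14.05 and 17.4 in supplied monoculture. All deprived cocultures lay above the deprived monocultures, and the interaction was 2.28 ± 0.25 (adjusted p = 2.29e-07). Pmvk kept most of its fall (-1.22 in coculture and -1.59 in monoculture). Of 13 tested genes of fatty acid synthesis and desaturation 10 had a positive interaction and 0 a negative one. Of the 6 sorted 2 were fully and 4 partly rescued, against 61.8% and 25.2% of all sorted genes. Besides that of Scd2 the positive interactions included those of Scd1 (2.60) and Fads2 (2.86).

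**Figure D4:**
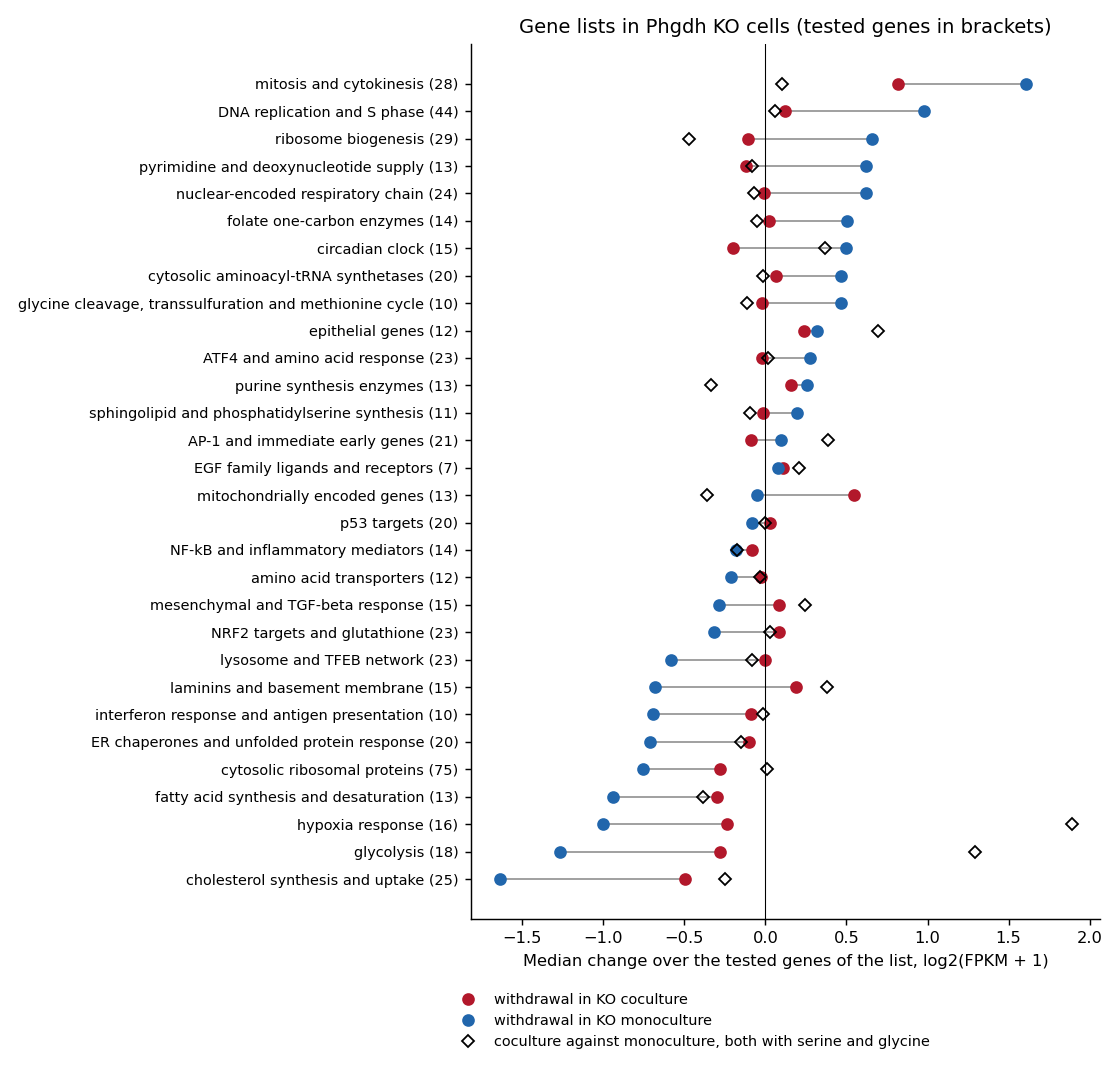
Median log2(FPKM + 1) change of each gene list in KO cells on withdrawal in coculture (red) and in monoculture (blue), joined by a line, and for supplied coculture against supplied monoculture (open diamonds). Mitosis genes stay at 0.82 in coculture while replication genes are near 0 (0.12), and the hypoxia and glycolysis lists have the largest supplied-coculture medians, 1.89 and 1.29.

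Most glycolysis and hypoxia genes fell less on withdrawal in coculture than in monoculture, and most stood higher in supplied coculture than in supplied monoculture. Of 18 tested glycolysis entries, 2 of which carry the symbol Aldoa, 15 were called downward in deprived monoculture, where 8534 of 12061 genes were called in either direction. Of the 18 entries 11 had a positive interaction and 1, Hk1, a negative one, against 27.9% and 29.8% over all genes. The interaction of the other 6 was not called. In coculture the median withdrawal change was -0.28, against -1.27 in monoculture, and 12 of 18 were still called downward (9 to 15 over the alternatives). Over all genes 29.9% were called in coculture in either direction, 15.5% upward. Supplied coculture was called above supplied monoculture in 16 of 18 (median 1.29), against 20.1% of all genes, and deprived coculture lay a median of 1.02 above supplied monoculture. Of 16 hypoxia response genes 12 had a positive and 4 a negative interaction, against 27.9% and 29.8% over all genes, and 9 were still called downward in coculture (6 to 12 over the alternatives). All 16 were called higher in supplied coculture than in supplied monoculture (median 1.89), against 20.1% of all genes. Bnip3, a mitophagy receptor and target of the hypoxia factor HIF-1, had 122, 135 and 140 FPKM in deprived and 157, 156 and 153 in supplied coculture, against 0.73, 0.67 and 1.11 in deprived and 17.0, 16.05 and 17.1 in supplied monoculture. Every coculture exceeded every monoculture, and the interaction was 3.05 ± 0.10 (adjusted p = 8.91e-15). The HIF prolyl hydroxylase Egln3 showed the same order, with 78.7 to 80.4 FPKM in deprived and 120 to 123 in supplied coculture, against 0.26 to 0.37 in deprived and 6.075 to 7.535 in supplied monoculture. Slc16a3, the lactate exporter MCT4, was the not rescued member of the glycolysis list on the log2(FPKM + 1) scale, with 76.6% kept and an interaction of 0.26. It had 9.46, 4.57 and 6.89 FPKM in deprived and 13.2, 13.0 and 12.2 in supplied coculture, against 0.46, 0.43 and 0.39 in deprived and 1.11, 2.75 and 2.58 in supplied monoculture, levels at which the pseudocount counts. The Slc16a3 interaction in KO was called at 1.07 with a pseudocount of 0.1, at 1.39 with limma voom and at 0.52 without replicate 1 of supplied monoculture. Oxygen in the cultures was not among the labelled conditions.

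**Figure D5:**
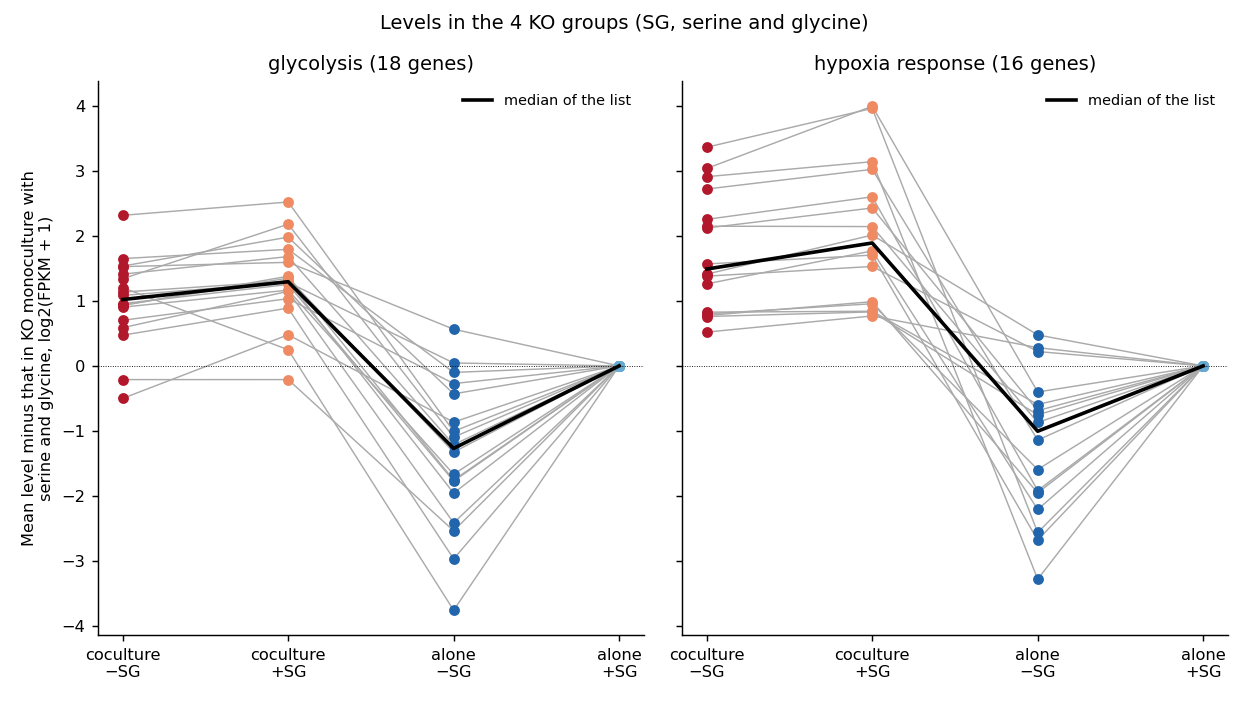
Mean log2(FPKM + 1) of each glycolysis and hypoxia response gene in the 4 KO groups, set to 0 in supplied monoculture (right end). Grey lines are genes and the black line is the median of the list; in both lists the medians of the cocultures lie above 0 and those of the deprived monocultures below it, at -1.27 for glycolysis and -1.005 for hypoxia.

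The Bnip3 window, chr7:138909457-138909756 (minus strand, GRCm38.p6, RefSeq), is shown with ACGTGC, the core of a HIF site, in capitals on either strand; its 2 matches overlap.
Bnip3: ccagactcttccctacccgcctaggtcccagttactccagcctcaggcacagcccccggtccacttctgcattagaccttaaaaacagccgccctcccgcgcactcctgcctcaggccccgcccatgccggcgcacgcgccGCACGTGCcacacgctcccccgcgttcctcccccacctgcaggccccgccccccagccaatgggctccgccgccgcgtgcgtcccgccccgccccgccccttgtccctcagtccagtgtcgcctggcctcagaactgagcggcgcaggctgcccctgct
This core was found in 6 of 12 hypoxia genes (50%) and 7 of 18 glycolysis genes (38.9%) with a window, in 10.1% of tested protein-coding genes with a window and in 5.91% of all windows in the table. Among fully rescued genes that fell it was found in 6.79%.

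ATF4 is the factor whose translation rises when uncharged tRNA accumulates, and its targets include transporters, tRNA synthetases and biosynthetic enzymes. Of 23 tested genes of this response 10 had a negative and 5 a positive interaction, against 29.8% and 27.9% over all genes. Of 7 sorted members 2 were fully rescued, 2 partly, 2 overshot and 1, Ddit4, was not rescued. Over all sorted genes these shares were 61.8%, 25.2%, 7.27% and 5.72%. The Ddit4 interaction in KO, 0.41, was called at 0.89 without replicate 1 of supplied monoculture. Atf5 (interaction -2.42), Trib3 (-1.65) and Ddit3 (-0.94) rose in monoculture and did not rise in coculture, whereas Pck2 (1.299) and Pycr1 (0.77) fell in monoculture. The transcript of Atf4 itself had 263, 138 and 197 FPKM in deprived and 328, 324 and 324 in supplied coculture, against 350, 359 and 350 in deprived and 154, 305 and 300 in supplied monoculture (interaction -1.30 ± 0.28, adjusted p = 0.000566). Asparagine synthetase, Asns, rose by 0.37 in coculture and 0.40 in monoculture, with an interaction of -0.03 that was not called. Cytosolic tRNA synthetases had 12 negative and 3 positive interactions among 20, against 29.8% and 27.9% over all genes, with Qars, for glutamine, the largest (1.59 ± 0.07).

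The Slc7a11 window, chr3:50443564-50443863 (minus strand, GRCm38.p6, RefSeq), is shown because the gene overshot. TGATGNAA, the amino acid response element bound by ATF4 with C/EBP partners, is in capitals and is present on each strand.
Slc7a11: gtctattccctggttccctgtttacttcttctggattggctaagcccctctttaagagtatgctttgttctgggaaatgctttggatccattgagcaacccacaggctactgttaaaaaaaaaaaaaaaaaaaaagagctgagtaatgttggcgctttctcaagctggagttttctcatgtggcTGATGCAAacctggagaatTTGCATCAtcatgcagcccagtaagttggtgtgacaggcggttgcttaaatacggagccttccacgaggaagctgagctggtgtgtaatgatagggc
This element was found in 10 of 22 ATF4 response genes with a window (45.5%), in 2.59% of tested protein-coding genes with a window and in 3.97% of all windows. A sterol element, TCACNCCAC, was found in 1 of 17 cholesterol genes with a window (5.88%). It was found in 1.37% of tested protein-coding genes with a window and in 1.24% of all windows.

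Genes of protein production went in 2 directions, and their counts stand against 27.9% positive and 29.8% negative interactions over all genes. Of 75 ribosomal proteins 44 had a positive interaction and 1 a negative one, with a median withdrawal change of -0.28 in coculture and -0.76 in monoculture. Ribosomal protein genes have many near-identical copies, so single values are uncertain. Of 29 ribosome biogenesis genes 19 had a negative and 2 a positive interaction, led by Bop1 (-1.93 ± 0.16), and the median withdrawal change was -0.11 in coculture and 0.66 in monoculture. Chaperones and folding enzymes of the endoplasmic reticulum were called downward on withdrawal in monoculture in 19 of 20 cases, where 8534 of 12061 genes were called in either direction. Of the 20, 18 had a positive interaction. Edem1, which directs misfolded glycoproteins to degradation, led them with 36.4 to 40.6 FPKM in deprived and 45.6 to 46.4 in supplied coculture, against 11.2 to 12.9 in deprived and 40.6 to 49.3 in supplied monoculture (1.53 ± 0.10, adjusted p = 1.45e-10).

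Nuclear and mitochondrial genes of the respiratory chain are given side by side, and the difference between them was not tested. Of 24 nuclear-encoded members 17 had a negative and 1 a positive interaction, against 29.8% and 27.9% over all genes. Their median withdrawal change was -0.01 in coculture and 0.62 in monoculture. Cycs, cytochrome c, led with 12.7 to 14.1 FPKM in deprived coculture and 59.8 to 65.4 in deprived monoculture (-1.73 ± 0.10, adjusted p = 5.46e-11). Of the 13 mitochondrially encoded genes 6 had a positive interaction, 0 a negative one and 7 none that was called, against 27.9% positive over all genes, with median withdrawal changes of 0.55 in coculture and -0.05 in monoculture. mt-Nd2, a complex I subunit, had 1529, 2025 and 2188 FPKM in deprived and 1009, 1053 and 1078 in supplied coculture, against 1775, 1350 and 1442 in deprived and 1698, 1224 and 1368 in supplied monoculture (0.76 ± 0.18, adjusted p = 0.0011). Mitochondrial reads made up 2.27 to 2.76% of deprived and 1.81 to 1.88% of supplied coculture libraries, against 1.92 to 2.37% of deprived and 2.11 to 2.92% of supplied monoculture libraries. The part of these totals in the single genes was not tested.

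The counts of the smaller groups stand against 27.9% positive and 29.8% negative interactions over all genes. Of 23 tested NRF2 targets and glutathione genes 15 had a positive and 5 a negative interaction, led by Gstm1, with the ferritin chain Fth1 (2.05) and Pgd of the pentose phosphate pathway (1.87) among those fully rescued. Of 15 clock genes 11 had a negative interaction and 1 a positive one. Besides Nr1d1 they included Per2 (-1.39) and the activators Clock (-0.87) and Arntl (-0.75), of which both activators were partly rescued. The EGF family list had 3 positive and 3 negative interactions among 7. Areg and Btc, ligands like Ereg, had interactions of -2.42 and -1.47, whereas Tgfa (0.93) and Hbegf (0.60) were positive. Of 15 laminin and basement membrane genes 11 were positive and 2 negative, led by nidogen, Nid1 (1.53 ± 0.07, adjusted p = 2.4e-12). Nid1 had 36.0 to 38.7 FPKM in deprived coculture against 3.92 to 4.12 in deprived monoculture. That gap also holds the difference between the supplied cultures and is not the interaction alone. Of 10 interferon and antigen presentation genes 6 were positive and 0 negative, B2m being the largest (1.63 ± 0.16).

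Some genes were called on withdrawal with hepatocytes and not without them. For 359 genes the interaction and the coculture change were called and the monoculture change was not, 182 upward and 177 downward in coculture, and 19 of them changed at least 2-fold. Without replicate 2 of deprived coculture this count was 181, of which 165 were among the 359. It was 612 without replicate 1 and 169 in the fit of the KO libraries alone. Ugt2b34, a glucuronosyltransferase, averaged 48.2 FPKM in deprived and 22.0 in supplied coculture, against 31.0 in deprived and 27.0 in supplied monoculture. The immediate early gene Fos averaged 162 and 96.9 FPKM in deprived and supplied coculture, against 63.7 and 59.6 in deprived and supplied monoculture, with a coculture change of 0.73. Trappc6a, a vesicle tethering subunit, fell by 1.28 in coculture and had a monoculture change of -0.04.

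Markers of other cell types gave little signal in the KO libraries. Summed hepatocyte markers reached 36.9 to 40.9 FPKM in deprived and 25.2 to 27.1 in supplied coculture, against 18.2 to 20.1 in deprived and 13.4 to 16.9 in supplied monoculture, but Hnf4a alone made up 36.3 to 40.3, 24.7 to 26.6, 17.8 to 19.1 and 13.4 to 15.96 of these. Serpina1a, Cyp3a11 and Trf were at 0 in all 12 KO libraries. The Hnf4a interaction (0.24 ± 0.09, adjusted p = 0.0194) missed the threshold under 5 alternatives. Macrophage and Kupffer cell markers summed to 7.78 to 8.93 FPKM in deprived and 6.26 to 7.72 in supplied coculture, against 2.08 to 3.55 in deprived and 5.42 to 8.21 in supplied monoculture, with Cd14 and Cd68 the tested members among 12. Endothelial and stellate cell markers summed to less than the macrophage markers in every group, and 0 of 7 acinar and islet markers were tested. Of 6 ductal markers 5 were tested, and the sum of all 6 was 3823 to 4127 FPKM in deprived and 3498 to 3527 in supplied coculture, against 4346 to 4543 in deprived and 1612 to 1850 in supplied monoculture. The part of any of these markers in the results above was not tested.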

How the data were processed

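Total RNA from HY19636 cells was sequenced. The submitters' processing notes name HISAT2 and GRCm38 (mm10). The sources used here do not give the counter, annotation release or use of strand. The authors deposited 1 table of FPKM for 24 libraries, with 0 columns of other samples. FPKM times gene length gave whole reads in 100% of values (within 0.01), at 0.969 to 1.068 times each library's total, so an unstated scaling factor had been applied.

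Genes that reached an FPKM of 1 in 3 or more libraries were tested as log2(FPKM + 1), which understates changes of low genes, in 1 limma 3.58.1 fit (R 4.3.3) of 8 group means over 24 libraries. The test was moderated, two-sided, with a mean-variance trend and 16 residual degrees of freedom, and Benjamini-Hochberg adjusted over 12061 genes; genes were called under 0.05. The script was tested on simulated data. ± values are SEs. The labels do not say that replicates were separate cultures, so p-values measure the spread between libraries, which may be technical.

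Deviations of same-numbered deprived and supplied KO monocultures correlated at 0.401, 0.276 and 0.114 for replicates 1, 2 and 3. The members, the 37 gene lists and the tests were chosen with earlier results of these data known. Named genes were Phgdh, Psat1 and Psph, the 3 largest monoculture changes per class and direction and the 4 largest interactions of each sign among protein-coding genes with a mean of at least 10 FPKM in the highest KO group, and, per list, the largest called interaction and the largest not rescued change. Some genes that this rule selects are not reported here, and the next in order was taken. Other named genes were chosen after their values were seen. Promoters are RefSeq windows (GRCm38.p6) matched by symbol for 8179 of 10284 tested protein-coding genes. Alternatives were another pseudocount, 2 filters, quantile normalization, a fit of KO libraries only, a replicate block, limma voom on recovered reads, other class limits, and leaving out libraries.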

Additional observations from a re-analysis of the deposited data

Results flagged for a closer look

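The coculture by withdrawal interaction differed between KO and WT cells by a test of the difference itself for 5605 genes. Values below are the KO minus WT difference of the interactions on the log2(FPKM + 1) scale, from limma at an adjusted p under 0.05, for those of the serine synthesis enzymes and of the genes with the largest monoculture changes and interactions that passed; list members are left out. It was negative for Phgdh (-1.05), Psat1 (-0.49), Sprr1a (-4.69), Nr1d1 (-3.87), Ereg (-3.54), Dynap (-3.74), Mmp13 (-2.93), Ivl (-1.53), Tmem238 (-3.18), Ndufb6 (-2.58), Nop10 (-2.29), Prl (-0.37), Ect2 (-1.18) and Rrm2 (-4.51). It was positive for Scd2 (4.93), Igfbp7 (3.51), Gstm1 (4.52), Lgals4 (3.03), Fads2 (3.04), Fam189b (2.21), Vnn1 (4.62) and Slc7a11 (3.68). Apart from the serine synthesis enzymes, these genes were chosen for large changes in the KO libraries. Those changes enter the difference, so its sign and call were largely set by the choice. For these genes the values are a description, and the cause of the differences was not tested.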

How the results depend on the processing

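The count of called KO interactions stayed within 1.5 times the reported 6962 under every alternative run (5247 to 7321), and no called interaction of a named gene reversed; that of Psph, which was not called, turned positive under quantile normalization. Of the 57 named genes 10 changed their call under at least 1 of 33 alternatives. The KO coculture withdrawal count was 3607 as reported, 1774 in the fit of the KO libraries only, 1877 without replicates 1 and 2 of deprived coculture, and 2152 to 4765 when single libraries were left out. The WT interaction count was 482 without replicate 1 of both KO monocultures and 100 to 362 when single libraries were left out. The classes depended on the limits. With a kept share of 10% there were 590 fully rescued genes, 1156 partly rescued genes and 380 overshooting genes, and with 50% 71 partly rescued genes and 43 overshooting genes. Sorting from 1.5-fold gave 2722 fully rescued, 1106 partly rescued, 575 overshooting and 599 not rescued genes, and from 4-fold 181, 66, 6 and 4. Limma voom gave 2114 fully rescued, 329 overshooting and 450 not rescued genes. A pseudocount of 0.1 gave 327 overshooting and 391 not rescued genes, and a filter at an FPKM of 5 gave 78 not rescued genes. The cause of these shifts was not tested. Of 18 same-numbered KO pairs 3 correlated over 0.1, all between deprived and supplied monoculture, and the others did not, so the numbers do not pair the interaction. Deviations of supplied monoculture replicate 1 correlated at -0.628 with deprived coculture replicate 1 and at 0.607 with its replicate 2. For supplied monoculture replicate 2 these were 0.537 and -0.517. Both groups enter the interaction with the same sign, and the source of this shared spread was not tested. With the replicate block the count of KO monoculture withdrawal was 8463, against 8534 as reported, and 6820 interactions were called. Precision is limited by 3 libraries a group and, for low genes, by depth.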
